A study of Mus musculus with 12 samples.

Results

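The genes described here carry glucose into the cell, convert it to pyruvate, or send glucose 6-phosphate through the pentose phosphate pathway. They were chosen by name as a list of 42 genes. The rule uses no measured value, but the list was drawn up with earlier results of these data known. Of these, 40 were found by gene symbol in the expression table, in 41 of its 24674 rows. Hk3 and Pklr were not analysed here. Aldoa had 2 rows, and the second one (ENSMUSG00000114515) held only 5 to 18 fragments in a sample, so Aldoa means the other row (ENSMUSG00000030695) throughout. By role, the rows hold 7 glucose transporters, 5 genes of hexose phosphate entry, 3 phosphofructokinases, 5 regulators of fructose 2,6-bisphosphate, 2 fructose bisphosphatases, 12 genes of lower glycolysis and 7 genes of the pentose phosphate pathway.

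RNA was measured in organoids, small cultures that grow from epithelial cells in a gel, derived from basal cells of the prostate of wild-type C57BL/6 mice. The 12 samples formed 4 groups of 3: Vehicle, UK5099, Butyrate, and UK5099 + Butyrate, which is called the combination below. UK5099 blocks the mitochondrial pyruvate carrier, so that less pyruvate enters the mitochondria, and butyrate inhibits histone deacetylases. The labels gave no dose or time, and nothing about whether replicates came from separate mice or cultures, so p-values measure the spread between these samples, which may be technical. The question of the design was how gene expression after histone deacetylase inhibition compares with that after blockade of the carrier.

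Glycolysis begins when glucose enters through facilitative transporters of the GLUT family and is trapped by a hexokinase. Phosphofructokinase makes the first step that commits the sugar to glycolysis, and its strongest activator, fructose 2,6-bisphosphate, is made and broken down by the bifunctional PFKFB enzymes. The last steps yield ATP and pyruvate, which is reduced to lactate or imported into mitochondria through the carrier that UK5099 blocks. Glucose 6-phosphate can instead enter the pentose phosphate pathway, whose oxidative branch makes NADPH and whose non-oxidative branch exchanges ribose phosphate with glycolytic sugars.

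Values were transcripts per 1000000 (TPM) as deposited, and recovered fragments came to between 33252169 and 43498950 per sample. Coefficients are differences between groups on the log2(TPM + 1) scale from limma. The added 1 understates changes of genes at a few TPM, and most of all under about 1 TPM. A gene was called at an adjusted p under 0.01 with an absolute coefficient over 1, the limits of the study's methods, and the looser limit of an adjusted p under 0.01 alone is named where it is used. On the deposited scale the typical gene was lower in each treated group. Over the 13345 genes whose mean reached 1 TPM, UK5099 had a median coefficient of -0.12, butyrate -0.30 and the combination -0.41. What moved these medians was not tested. After median-of-ratios scaling, which sets the typical gene to no change, these medians were 0.0053, 6.0e-04 and 0.0044. The members described in full are therefore given on both scales. Replicate 1 of UK5099 and replicate 1 of the combination stood apart from the other replicates of their groups, with a chi-square per degree of freedom of 6.29 to 6.64 against 1.93 to 2.65 for all other pairs. Leaving out either one kept every count of members in the fits below within 1.5 times.

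All 7 basal markers were present, with a summed level of 6741 to 6866 TPM in vehicle and higher sums in the treated groups, and the sums of other cell type markers differed between groups too. The 6 luminal markers summed to 5147 to 5347 TPM in vehicle, and in UK5099, butyrate and combination samples to 3048 to 3185, 2863 to 2895 and 1791 to 2005. The 7 squamous markers rose from 440.1 to 453 TPM in vehicle to 2018 to 2415, 955 to 1016 and 3013 to 4120.2 in the same order, and 5 proliferation genes went from 411 to 419 to 289 to 313, 298 to 304 and 224 to 247. Markers of 4 endothelial genes summed to at most 0.0661 TPM, and 7 fibroblast markers to 2.65 to 2.69 TPM in vehicle, 10.7 to 11.1 with butyrate and 2.41 to 2.78 with both drugs. Dcn alone accounted for the higher sum with butyrate, at 0.762 ± 0.0856 TPM in vehicle and 9.51 ± 0.129 with butyrate (SD, n = 3), whereas Col1a1 was at 1.01 ± 0.0417 and 0.713 ± 0.0788 TPM. Of the immune markers Cd68 and Ptprc, the summed level went from 23.8 to 24.8 TPM in vehicle to 86.4 to 97.1 with the combination, with Ptprc at no more than 0.00425 TPM in a sample. All marker sums are on the deposited scale, on which the typical gene was lower in each treated group, and they were not rescaled. Size factors of median-of-ratios scaling, which divide TPM, ran from 1.19 to 1.21 in vehicle samples. They ran from 1.07 to 1.09 for UK5099, 0.930 to 0.939 for butyrate and 0.836 to 0.852 for both drugs. Dividing by them would make the falls from vehicle smaller and the rises larger. The part of these markers in the results was not tested. In bulk samples, fewer cells of a type and less RNA per cell cannot be told apart.

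Several enzymes of glycolysis have processed copies elsewhere in the genome, and reads from near-identical copies can be split between rows. Copies of at least 95% identity were found for 7 members. Eno1 held 25.0% of the fragments listed at itself and its 4 copies, Pgk1 held 33.0% with 4 copies, and Gapdh held 42.5% with 88 copies. The share was 74.0% for Gpi1, 83.6% for Pgam1, 87.1% for Pkm and 97.8% for Tpi1. Levels of these 7 genes are uncertain for this reason. Summing copies with the gene was a check chosen after seeing the data. Against vehicle, Pgk1 then had coefficients of 0.25 with UK5099, 0.42 with butyrate and 0.22 with both drugs, beside 0.26, 0.42 and 0.28 for its own row. The small Gapdh coefficient of 0.083 with the combination became -0.0078, and neither value passed the test. The combination coefficient of the Gapdh row did pass with median of ratios (0.59).

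**Figure D1:**
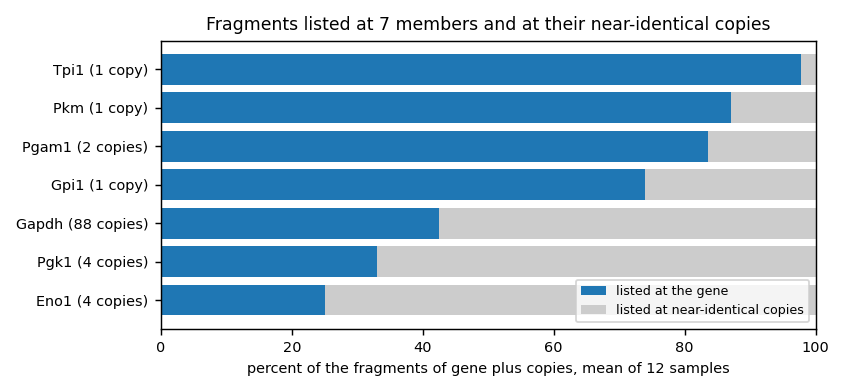
Horizontal bars give, for 7 members with near-identical copies, the percent of fragments of the family listed at the gene itself (blue) and at its copies (grey), as the mean of 12 samples. The lowest shares were those of Eno1 (25.0%), Pgk1 (33.0%) and Gapdh (42.5%).

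No member passed both limits on the deposited scale with the pseudocount of 1 in any of the 5 comparisons. Of all genes, 1.84% did for UK5099, 3.54% for butyrate, 6.42% for the combination, 1.01% for the interaction and 1.86% for butyrate against UK5099. Some members did with a smaller pseudocount, as named at the end. At an adjusted p under 0.01 alone, UK5099 raised 13 of 41 rows (all genes, 8.24%) and lowered 6 (all genes, 24.7%). Butyrate raised 12 (9.7%) and lowered 13 (35.9%), and the combination raised 11 (10.1%) and lowered 17 (40.8%). After median-of-ratios scaling the counts were 23 higher (13.6%) and 2 lower (13.6%) with UK5099, 27 (20.2%) and 2 (18.2%) with butyrate, and 32 (23.4%) and 3 (20.6%) with the combination. Higher calls among the members thus outnumbered lower ones in each treated group after that scaling, whereas on the deposited scale they did so with UK5099 but not with butyrate or the combination.

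The 30 members whose mean reached 1 TPM had a median coefficient on the deposited scale of 0.032 with UK5099, -0.032 with butyrate and -0.10 with both drugs, each above the median of all genes given above. After median-of-ratios scaling these medians were 0.17, 0.32 and 0.34. In a fit of recovered fragments with voom, scaled by median of ratios and without a pseudocount of 1 TPM, 0 members passed both limits for UK5099 (all genes, 5.8%), 6 for butyrate (10.5%) and 6 for the combination (14.1%). The members past them with butyrate were Slc2a6, Slc2a9, Slc2a12, Pfkm, Pgam2 and Eno3, and with the combination Slc2a6, Slc2a12, Pfkm, Pfkfb3, Pgam2 and Eno3. These genes had low levels, and they were named after their values were seen.

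**Figure D2:**
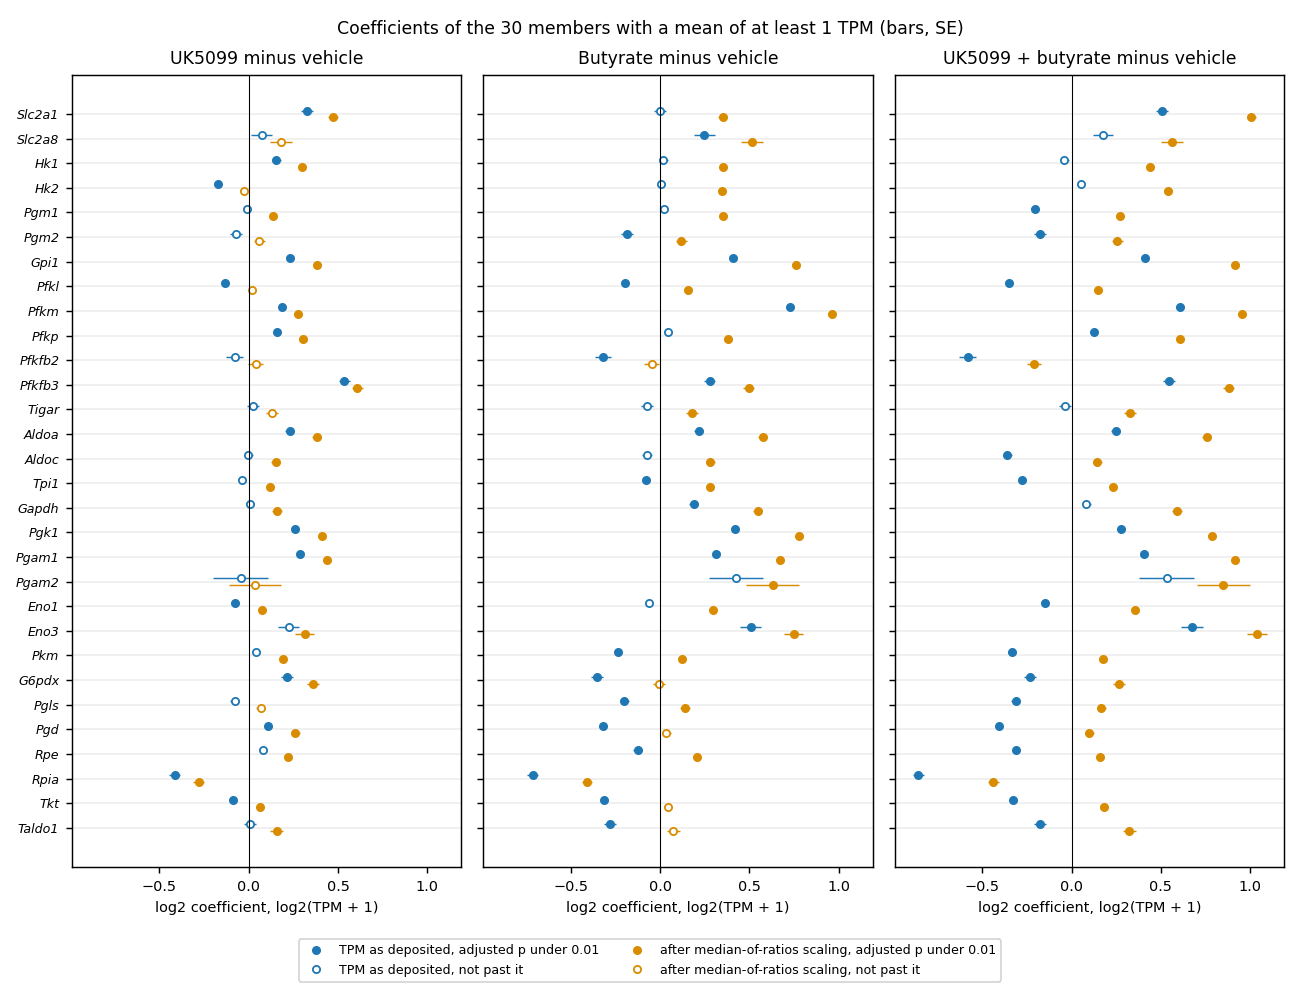
Points give the log2 coefficient of each of 30 members whose mean reached 1 TPM, against vehicle, with bars for 1 SE, on TPM as deposited (blue) and after median-of-ratios scaling (orange), in 1 panel for each treatment. Filled points passed a limma adjusted p under 0.01. Orange points lie to the right of blue ones in every panel, and the filled orange points left of 0 are Rpia in every panel and Pfkfb2 in the combination.

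Across every fit that was run, 6 members were higher than vehicle at an adjusted p under 0.01 in all 3 treated groups: Gpi1, Pfkm, Pfkfb3, Aldoa, Pgk1 and Pgam1. Rpia and Pfkfb4 were lower in all 3 in the same way, but Pfkfb4, with a mean under 1 TPM, was in only 24 of the 25 fits. The 3 comparisons share the vehicle samples, and the fits reuse the same samples. The share of all genes that passed every fit was not computed. The 250 bases upstream of the start of 4 members are shown because Gpi1 and Pgk1 rose in all treated groups, Rpia fell in all, and Slc2a1 rose with UK5099 and the combination. Each has 1 listed start. They are RefSeq sequences with GRCm38.p6 coordinates, 5′ to 3′ on the gene's strand. Capitals mark ACGTG and GGGCGG on either strand (CACGT and CCGCCC are their reverse complements). ACGTG is a core of the hypoxia response element and a part of the E-box CACGTG, and GGGCGG is a core of the GC box. ACGTG also counts the matches that are part of CACGTG.
Gpi1, chr7:34230337-34230586, minus strand: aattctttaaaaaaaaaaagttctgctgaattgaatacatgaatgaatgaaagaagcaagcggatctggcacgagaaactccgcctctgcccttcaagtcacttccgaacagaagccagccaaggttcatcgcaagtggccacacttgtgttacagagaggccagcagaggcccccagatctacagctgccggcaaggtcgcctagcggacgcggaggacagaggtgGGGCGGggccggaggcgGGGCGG
Pgk1, chrX:106186850-106187099, plus strand: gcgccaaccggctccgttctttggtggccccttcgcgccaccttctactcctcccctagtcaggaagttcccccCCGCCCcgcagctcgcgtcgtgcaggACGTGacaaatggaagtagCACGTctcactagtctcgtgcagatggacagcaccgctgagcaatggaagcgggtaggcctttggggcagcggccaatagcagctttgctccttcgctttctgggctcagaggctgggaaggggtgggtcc
Slc2a1, chr4:119108495-119108744, plus strand: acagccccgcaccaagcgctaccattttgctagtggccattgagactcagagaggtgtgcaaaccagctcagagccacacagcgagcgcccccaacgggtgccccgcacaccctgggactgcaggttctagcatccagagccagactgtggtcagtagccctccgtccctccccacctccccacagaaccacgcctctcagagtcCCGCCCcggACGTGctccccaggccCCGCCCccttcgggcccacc
Rpia, chr6:70792176-70792425, minus strand: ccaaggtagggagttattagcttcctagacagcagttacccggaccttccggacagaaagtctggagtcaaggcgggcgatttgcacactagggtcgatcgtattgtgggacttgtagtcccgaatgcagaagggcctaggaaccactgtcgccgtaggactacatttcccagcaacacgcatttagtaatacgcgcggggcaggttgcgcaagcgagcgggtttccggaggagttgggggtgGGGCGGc

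Pgk1 held ACGTG at 2 places, 150 and 131 bases before the start, Slc2a1 held it at 1 place, 36 bases before the start, and Gpi1 and Rpia held none in this window. All 4 held GGGCGG, Gpi1 and Slc2a1 at 2 places each. Among 39 members with an entry on the chromosome that the table gives, 12 held ACGTG at 1 listed start or more, 4 held CACGTG and 27 held GGGCGG. Of all 32851 promoter windows of the same length, 16.6% held ACGTG, 6.02% held CACGTG and 32.7% held GGGCGG. Members can have several starts, so the shares of genes and of windows are not on the same footing. A match describes letters only and says nothing about binding.

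Slc2a1, which encodes the widespread glucose transporter GLUT1, rose with UK5099 and more with the combination, but not with butyrate alone on the deposited scale. Gene positions are those of the table, in GRCm39 by the submitters' processing notes. Slc2a1 (ENSMUSG00000028645, chromosome 4, 118965908 to 118995180) was at 51.2, 49.9 and 47.6 TPM with vehicle, 60.7, 61.7 and 64.5 with UK5099, 48.2, 49.0 and 51.3 with butyrate and 69.7, 71.3 and 71.2 with both. The UK5099 and combination values lay above all vehicle values, while vehicle and butyrate overlapped. Its coefficients were 0.32 ± 0.034 (SE, limma adjusted p = 3.9e-05) for UK5099, -0.0018 for butyrate (adjusted p = 0.98) and 0.51 ± 0.034 (SE, limma adjusted p = 5.2e-07) for the combination. After median-of-ratios scaling they were 0.47, 0.35 and 1.01, each past an adjusted p of 0.01, and the last one passed both limits. Slc2a1 made up 94.0% ± 0.161 of the summed transporter level in vehicle and 88.9% ± 0.585 with butyrate, in TPM per exonic length (SD, n = 3).

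Slc2a12, which encodes the transporter GLUT12, rose with butyrate, while UK5099 values overlapped vehicle. Slc2a12 (ENSMUSG00000037490, chromosome 10, 22520910 to 22580184) was at 0.528, 0.581 and 0.520 TPM with vehicle, 0.540, 0.529 and 0.539 with UK5099, 1.64, 1.57 and 1.51 with butyrate and 0.817, 0.744 and 0.803 with both. Every butyrate value stood above every other sample, and those with both drugs stood above vehicle. The coefficient was 0.74 ± 0.023 (SE, limma adjusted p = 6.2e-09) for butyrate, 0.21 for the combination and -0.0062 for UK5099, and with median of ratios these were 0.89, 0.41 and 0.043. On fragments the butyrate value was 1.86. Of its 12 values, all under 1000 fragments, 2 came out as whole fragments, so its fragments are estimates. Slc2a9, a transporter of urate and hexoses, went from 0.325, 0.352 and 0.338 TPM in vehicle to 0.589, 0.578 and 0.586 with UK5099 and 0.634, 0.594 and 0.625 with butyrate, but was 0.383, 0.361 and 0.368 with the combination. It had coefficients of 0.24, 0.27 and 0.035, of which the first 2 passed an adjusted p of 0.01. The combination value passed as well after median-of-ratios scaling, at 0.17.

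The other transporters were low or changed less. Slc2a8, which encodes an intracellular transporter, was 2.95 ± 0.189 TPM in vehicle (SD, n = 3) and rose to 3.69 ± 0.115 with butyrate (0.25 ± 0.058 SE, limma adjusted p = 0.0048), and with median of ratios it passed the limit for butyrate (0.52) and the combination (0.56). Slc2a6, another intracellular transporter, held 1 to 9 fragments, Slc2a3 (GLUT3) held 7 to 20 fragments and Slc2a10 held 0 to 5 fragments in a sample, with 4 samples at 0. Slc2a6 was higher in all treated samples than in any vehicle sample, but a median of 6 fragments lies behind its values.

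The 2 hexokinases moved in opposite directions with UK5099 on the deposited scale. Hk1, the form bound to mitochondria in most tissues, was at 15.7, 16.1 and 15.1 TPM with vehicle, 17.3, 17.4 and 17.9 with UK5099, 15.9, 15.9 and 15.8 with butyrate and 15.5, 14.8 and 15.2 with both. Hk2, the inducible form, was at 21.0, 20.9 and 20.1 TPM with vehicle, 18.1, 18.0 and 18.5 with UK5099, 20.6, 21.0 and 20.5 with butyrate and 21.5, 21.6 and 21.3 with both. With UK5099 all Hk1 values were above and all Hk2 values below those of vehicle, with coefficients of 0.16 ± 0.024 (SE, limma adjusted p = 0.00055) and -0.17 ± 0.019 (SE, limma adjusted p = 5.3e-05). After median-of-ratios scaling Hk1 was still higher at 0.30 while Hk2 was at -0.026 (adjusted p = 0.31), so the fall of Hk2 depended on the scaling. On that scale butyrate and the combination gave 0.35 and 0.44 for Hk1, and 0.35 and 0.54 for Hk2, in place of 0.018, -0.041, 0.0042 and 0.053 as deposited. The ratio of Hk2 to Hk1 fragments within a sample, which no scaling can change, was 0.588 ± 0.00675 in vehicle samples, 0.463 ± 0.00332 with UK5099, 0.582 ± 0.00584 with butyrate and 0.630 ± 0.0180 with both drugs (SD, n = 3). The UK5099 ratios lay below all others. Per exonic length, Hk1 was 54.3% ± 0.286 of the level of both in vehicle and 60.2% ± 0.171 with UK5099.

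Gpi1, which converts glucose 6-phosphate to fructose 6-phosphate, rose in every treated group. Gpi1 (ENSMUSG00000036427, chromosome 7, 33900755 to 33929761) was at 90.7, 88.2 and 87.4 TPM with vehicle, 104, 104 and 105 with UK5099, 119, 116 and 119 with butyrate and 119, 118 and 118 with both. No treated value overlapped vehicle, and butyrate and the combination lay above UK5099. Coefficients were 0.23 ± 0.016 (SE, limma adjusted p = 2.6e-06), 0.41 ± 0.016 (SE, limma adjusted p = 2.5e-08) and 0.41 ± 0.016 (SE, limma adjusted p = 1.2e-08) in that order, and 0.38, 0.76 and 0.91 after median-of-ratios scaling. Pgm1, which links glycogen to glucose 6-phosphate, stayed between 14.5 and 15.4 TPM in vehicle and both single treatments and was 12.6, 12.7 and 12.7 with the combination. Pgm2, a phosphopentomutase, was 6.06 ± 0.178 TPM in vehicle and 5.25 ± 0.263 with the combination. Both had negative combination coefficients (-0.21 and -0.18) that turned positive after median-of-ratios scaling (0.27 and 0.25).

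**Figure D3:**
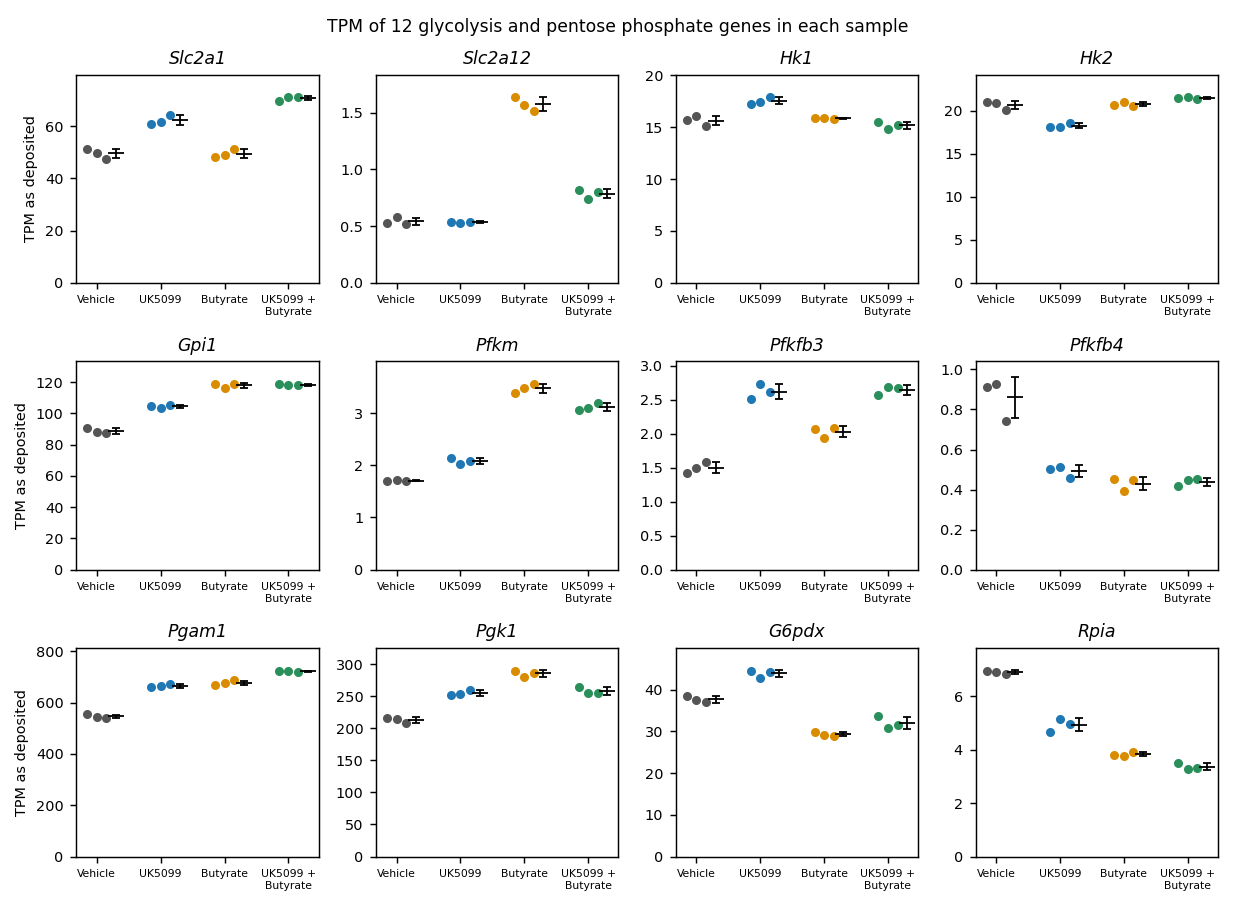
Each panel plots TPM as deposited (axis from 0) for 1 of 12 members, with 1 point a sample and the mean with SD in black beside each group of 3. Gpi1, Pfkm, Pfkfb3, Pgam1 and Pgk1 lie above vehicle in all treated groups, Rpia and Pfkfb4 below it, Slc2a12 peaks with butyrate at 1.51 to 1.64 TPM, and G6pdx is above vehicle with UK5099 and below it with butyrate.

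In shares of their summed level, the 3 phosphofructokinases shifted from Pfkl toward Pfkp and Pfkm, the muscle-type form. Pfkm (ENSMUSG00000033065, chromosome 15, 97990470 to 98030332) was at 1.70, 1.72 and 1.70 TPM with vehicle, 2.15, 2.03 and 2.08 with UK5099, 3.39, 3.47 and 3.56 with butyrate and 3.06, 3.09 and 3.20 with both. All treated values exceeded vehicle, and those with butyrate were the highest. Its coefficients were 0.19 ± 0.020 (SE, limma adjusted p = 4.5e-05) for UK5099, 0.73 ± 0.020 (SE, limma adjusted p = 2.7e-09) for butyrate and 0.60 ± 0.020 (SE, limma adjusted p = 4.0e-09) for the combination, and the butyrate value on fragments was 1.34. After median-of-ratios scaling the coefficients were 0.27, 0.96 and 0.95. The 4 of 7 muscle markers in the table had low sums, of 0.360 to 0.526 TPM in vehicle, and of 0.414 to 0.708, 0.0740 to 0.110 and 0.165 to 0.269 TPM in the UK5099, butyrate and combination samples, and their part in the Pfkm values was not tested.

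Pfkl, the liver-type form and the most abundant, was at 56.9, 57.7 and 56.0 TPM with vehicle, 51.7, 51.3 and 52.6 with UK5099, 48.8, 49.1 and 50.8 with butyrate and 44.3, 44.3 and 44.5 with both. Each treated group lay below vehicle on this scale, with coefficients of -0.13 ± 0.018 (SE, limma adjusted p = 0.00026), -0.19 ± 0.018 (SE, limma adjusted p = 8.0e-06) and -0.35 ± 0.018 (SE, limma adjusted p = 7.6e-08). The direction depended on the scaling, since the values were 0.019, 0.16 and 0.15 after median of ratios. Pfkp, the platelet-type form, was at 15.1, 15.2 and 15.1 TPM with vehicle, 16.7, 16.8 and 17.5 with UK5099, 15.6, 15.7 and 15.7 with butyrate and 16.5, 16.8 and 16.5 with both. It rose with UK5099 (0.16 ± 0.017 SE, limma adjusted p = 4.9e-05) and the combination (0.13 ± 0.017 SE, limma adjusted p = 0.00012), and the butyrate coefficient of 0.047 missed the limit (adjusted p = 0.045). All 3 Pfkp coefficients passed it with median of ratios, at 0.30, 0.38 and 0.60. Within samples, the ratio of Pfkm to Pfkl fragments was 0.0517 ± 0.000629 in vehicle samples, 0.0693 ± 0.00194 with UK5099, 0.121 ± 0.00111 with butyrate and 0.121 ± 0.00252 with both drugs, with no overlap between vehicle and any treated group. Per exonic length, Pfkm was 6.90% ± 0.0586 of the summed level of the 3 genes in vehicle, 8.51% ± 0.256 with UK5099 and 14.1% ± 0.133 with butyrate, and Pfkl went from 66.7% ± 0.251 to 55.6% ± 0.237 with the combination.

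**Figure D4:**
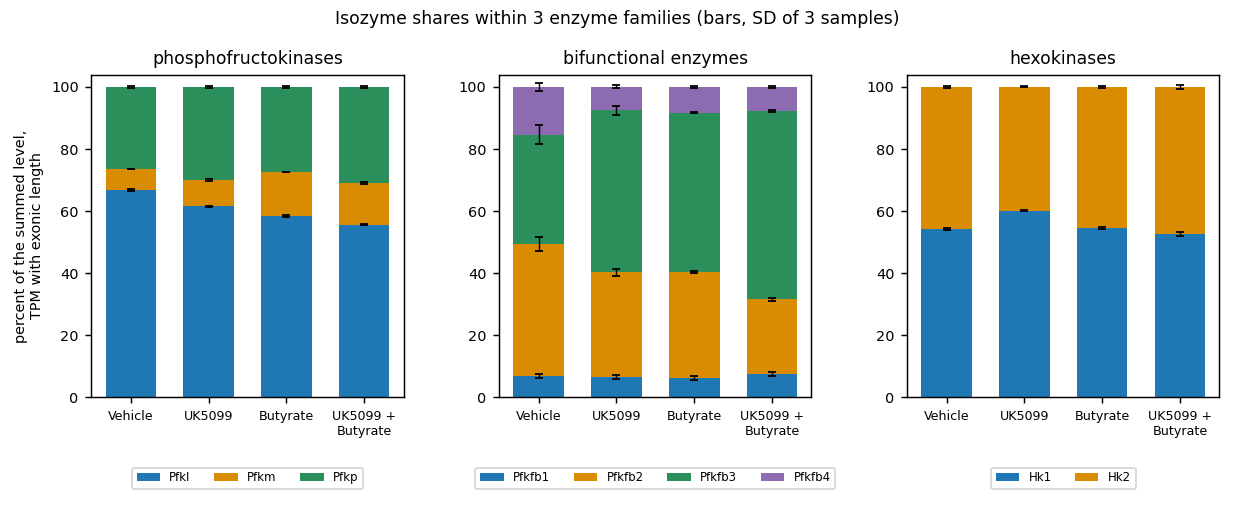
Stacked bars give the percent of the summed level of each enzyme family held by each gene, in TPM recomputed with exonic length, as the mean of 3 samples with SD. The Pfkm part grows from 6.90% in vehicle to 14.1% with butyrate, and the Pfkfb3 part from 35.3% to 60.8% with the combination.

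The bifunctional enzymes, which set the level of fructose 2,6-bisphosphate, diverged. Pfkfb3, whose product acts mostly as the kinase, was at 1.42, 1.49 and 1.58 TPM with vehicle, 2.51, 2.74 and 2.62 with UK5099, 2.07, 1.94 and 2.08 with butyrate and 2.57, 2.69 and 2.68 with both. All treated samples were above all vehicle samples. The coefficients were 0.53 ± 0.032 (SE, limma adjusted p = 1.0e-06), 0.28 ± 0.032 (SE, limma adjusted p = 4.0e-05) and 0.54 ± 0.032 (SE, limma adjusted p = 2.0e-07), and 0.61, 0.49 and 0.88 with median of ratios. Pfkfb4 was at 0.911, 0.929 and 0.744 TPM with vehicle, 0.504, 0.513 and 0.457 with UK5099, 0.451, 0.393 and 0.446 with butyrate and 0.417, 0.448 and 0.453 with both. Its treated samples were all below vehicle, with coefficients of -0.32 ± 0.037 (SE, limma adjusted p = 8.4e-05), -0.38 ± 0.037 (SE, limma adjusted p = 1.2e-05) and -0.37 ± 0.037 (SE, limma adjusted p = 1.2e-05), which understate the change because the gene lies under 1 TPM. They were, with median of ratios, -0.24, -0.23 and -0.17. On fragments the Pfkfb4 values were -0.64, -0.66 and -0.48. The ratio of Pfkfb3 to Pfkfb4 fragments went from 3.61 ± 0.641 in vehicle to 10.9 ± 0.770, 9.66 ± 0.364 and 12.3 ± 0.258.

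Pfkfb2 fell with butyrate (-0.32 ± 0.047 SE, limma adjusted p = 0.00023) and the combination (-0.58 ± 0.047 SE, limma adjusted p = 2.2e-06), from 3.58 ± 0.312 to 2.67 ± 0.134 and 2.06 ± 0.0538 TPM. The combination value was -0.21 after median-of-ratios scaling and still past the limit, while that for butyrate was -0.048 (adjusted p = 0.39). Per exonic length, Pfkfb3 made up 35.3% ± 3.13 of the summed level of the 4 genes in vehicle and 60.8% ± 0.266 with the combination, while Pfkfb2 went from 42.5% ± 2.21 to 23.9% ± 0.589. Pfkfb1, the liver form, held 75 to 162 fragments and none of its 3 coefficients against vehicle passed the limit as deposited. Tigar, which breaks down fructose 2,6-bisphosphate, was at 2.56, 2.49 and 2.67 TPM with vehicle, 2.65, 2.57 and 2.68 with UK5099, 2.26, 2.38 and 2.57 with butyrate and 2.56, 2.41 and 2.51 with both. The groups overlapped, and its coefficients of 0.023, -0.072 and -0.035 did not pass (adjusted p = 0.67, 0.10 and 0.42). After median-of-ratios scaling they were 0.13, 0.18 and 0.33. The fructose bisphosphatases of gluconeogenesis were near the floor, with 0 to 8 fragments for Fbp1 and 21 to 67 fragments for Fbp2.

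In lower glycolysis the steps did not move alike. Aldoa, the main aldolase, was at 1465, 1455 and 1426 TPM with vehicle, 1706, 1674 and 1717 with UK5099, 1681, 1653 and 1717 with butyrate and 1776, 1705 and 1677 with both. All treated values were above vehicle, with coefficients of 0.23 ± 0.024 (SE, limma adjusted p = 3.9e-05), 0.22 ± 0.024 (SE, limma adjusted p = 2.9e-05) and 0.25 ± 0.024 (SE, limma adjusted p = 8.9e-06), and of 0.38, 0.57 and 0.76 with median of ratios. Aldoc, the brain-type aldolase, was 103 ± 3.96 TPM in vehicle and 80.3 ± 1.17 with the combination (-0.36 ± 0.027 SE, limma adjusted p = 1.3e-06), a fall that turned to 0.14 after median-of-ratios scaling. Per exonic length, Aldoa was 94.7% ± 0.122 of both in vehicle and 96.5% ± 0.0530 with the combination. Tpi1, triosephosphate isomerase, was at 1323, 1316 and 1293 TPM with vehicle, 1278, 1286 and 1274 with UK5099, 1223, 1231 and 1269 with butyrate and 1092, 1080.1 and 1075 with both. The combination lay lowest, and the coefficients of -0.035, -0.079 and -0.28 were 0.12, 0.28 and 0.23 after median-of-ratios scaling.

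Gapdh, the oxidising step, was at 432, 432 and 427 TPM with vehicle, 439, 418 and 440.4 with UK5099, 489.9, 494 and 486 with butyrate and 468, 454 and 444 with both. Butyrate values stood above all others, with a coefficient of 0.19 ± 0.024 (SE, limma adjusted p = 8.9e-05), and the UK5099 coefficient was 0.0069 (adjusted p = 0.88). With median of ratios the Gapdh coefficients were 0.16, 0.55 and 0.59, and those for UK5099 and the combination, which had missed the limit, passed it (limma adjusted p = 0.0013 and 7.0e-08). Pgk1, the first ATP-yielding step, was at 216, 215 and 208 TPM with vehicle, 252, 253 and 259.9 with UK5099, 290.0, 280.3 and 286 with butyrate and 265, 254 and 255 with both. Its treated values did not overlap vehicle, with coefficients of 0.26 ± 0.023 (SE, limma adjusted p = 1.5e-05), 0.42 ± 0.023 (SE, limma adjusted p = 2.0e-07) and 0.28 ± 0.023 (SE, limma adjusted p = 3.0e-06), and of 0.41, 0.78 and 0.78 with median of ratios. Pgam1, phosphoglycerate mutase, was at 555, 543 and 540.3 TPM with vehicle, 659, 665 and 672 with UK5099, 669.6, 676 and 686 with butyrate and 725, 723 and 720.2 with both. It rose in every treated group and was highest with the combination, with coefficients of 0.28 ± 0.014 (SE, limma adjusted p = 3.6e-07), 0.31 ± 0.014 (SE, limma adjusted p = 6.7e-08) and 0.40 ± 0.014 (SE, limma adjusted p = 6.8e-09), and of 0.44, 0.67 and 0.91 with median of ratios.

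The enolases again differed by isoform. Eno1 was at 239, 239.5 and 231 TPM with vehicle, 221, 225 and 226 with UK5099, 224, 224 and 231 with butyrate and 215, 213 and 211 with both. Its coefficients of -0.078, -0.063 and -0.15 (adjusted p = 0.0067, 0.016 and 5.1e-05) became 0.074, 0.29 and 0.36 after median-of-ratios scaling. Eno3, the muscle-type enolase, was at 1.99, 2.08 and 1.65 TPM with vehicle, 2.36, 2.21 and 2.59 with UK5099, 3.21, 3.17 and 2.99 with butyrate and 3.55, 3.75 and 3.58 with both. All treated values were above all vehicle values, and the UK5099 coefficient was 0.22 (adjusted p = 0.013). Butyrate and the combination had coefficients of 0.51 ± 0.059 (SE, limma adjusted p = 4.6e-05) and 0.67 ± 0.059 (SE, limma adjusted p = 4.4e-06). With median of ratios the 3 values were 0.31, 0.75 and 1.04, and the combination passed both limits. It held 70 to 208 fragments a sample. The ratio of Eno3 to Eno1 fragments was 0.00351 ± 0.000361 in vehicle samples, 0.00466 ± 0.000352 with UK5099, 0.00603 ± 0.000327 with butyrate and 0.00744 ± 0.000234 with both drugs. Pgam2, the muscle-type mutase, had 14 to 57 fragments a sample and coefficients of 0.42 with butyrate and 0.53 with both drugs (adjusted p = 0.042 and 0.013). Eno2, the neuronal form, overlapped between all groups, at 0.402 to 0.933 TPM.

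Pkm, pyruvate kinase, makes the pyruvate that the carrier would import. It was at 645, 649 and 632 TPM with vehicle, 655, 656 and 671 with UK5099, 541, 538 and 554 with butyrate and 507, 509 and 514 with both. The butyrate and combination values were below all vehicle values, with coefficients of -0.24 ± 0.017 (SE, limma adjusted p = 1.1e-06) and -0.33 ± 0.017 (SE, limma adjusted p = 6.4e-08), and the UK5099 coefficient was 0.041 (adjusted p = 0.076). After median-of-ratios scaling the 3 coefficients were 0.19, 0.12 and 0.18, all past an adjusted p of 0.01, so the fall depended on the scaling. The table does not separate the M1 and M2 splice forms.

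On the deposited scale all 7 pentose phosphate genes were lower with butyrate and with the combination at an adjusted p under 0.01. Their median coefficients were -0.31 and -0.31, and 35.9% and 40.8% of all genes were lower. All 7 lay above 1 TPM. In the fit limited to the 13345 genes whose mean reached 1 TPM, 7836 and 8698 were lower. The median coefficients of those genes were -0.30 and -0.41, so the family did not fall further than the typical gene by more than 0.01. With UK5099, 2 were higher and 2 lower, beside 8.24% and 24.7% of all genes. After median-of-ratios scaling, 2 were higher and 1 lower with butyrate (all genes, 20.2% and 18.2%), and 6 higher and 1 lower with the combination (23.4% and 20.6%). With UK5099 on that scale, G6pdx, Pgd, Rpe, Tkt and Taldo1 were higher, Rpia was lower and Pgls missed the limit (all genes, 13.6% higher and 13.6% lower). The family median with butyrate was then 0.044, beside 0.42 for the 12 rows of lower glycolysis, which include the second Aldoa row, Eno2 and Pgam2. With UK5099 the pentose phosphate values ran from -0.28 to 0.36 and those of lower glycolysis from -0.023 to 0.44. With the combination they ran from -0.44 to 0.32 and from 0.022 to 1.04. The families overlapped, as butyrate also lowered Pkm (-0.24), Pfkl (-0.19) and Pfkfb2 (-0.32) on the deposited scale, and Rpe (0.21) lay above Pkm (0.12) after median-of-ratios scaling. The difference between the families was not tested.

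G6pdx, the entry enzyme of the oxidative branch, was at 38.6, 37.4 and 37.1 TPM with vehicle, 44.6, 42.9 and 44.2 with UK5099, 29.8, 29.2 and 28.9 with butyrate and 33.7, 30.8 and 31.4 with both. The UK5099 values lay above and the butyrate and combination values below those of vehicle. Its coefficients were 0.21 ± 0.032 (SE, limma adjusted p = 0.00043), -0.35 ± 0.032 (SE, limma adjusted p = 7.0e-06) and -0.23 ± 0.032 (SE, limma adjusted p = 0.00012). After median-of-ratios scaling they were 0.36, -0.0043 and 0.26, so the rise with UK5099 held and the fall with butyrate did not. Pgd, the other NADPH-yielding enzyme, was at 105, 108 and 103 TPM with vehicle, 115, 113 and 113 with UK5099, 84.6, 83.2 and 84.6 with butyrate and 81.7, 78.0 and 78.3 with both. It was also above vehicle with UK5099 and below it with butyrate and the combination, which was lowest, with coefficients of 0.11 ± 0.023 (SE, limma adjusted p = 0.0039), -0.32 ± 0.023 (SE, limma adjusted p = 1.4e-06) and -0.40 ± 0.023 (SE, limma adjusted p = 1.8e-07), and of 0.26, 0.035 and 0.10 after median-of-ratios scaling. Pgls, the lactonase between them, was 18.9 ± 0.676 TPM in vehicle and 16.3 ± 0.204 with butyrate (-0.20 ± 0.026 SE, limma adjusted p = 9.6e-05). The sign turned after median-of-ratios scaling, to 0.14 with butyrate and 0.17 with both drugs, and both values passed the limit (limma adjusted p = 0.0016 and 0.00039).

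Ratios within a sample do not depend on scaling. The ratio of G6pdx to Gpi1 fragments, which compares the enzymes that compete for glucose 6-phosphate, was 0.289, 0.289 and 0.288 with vehicle, 0.290, 0.281 and 0.285 with UK5099, 0.171, 0.171 and 0.165 with butyrate and 0.193, 0.178 and 0.181 with both drugs. UK5099 overlapped vehicle, and both groups with butyrate lay below them. The ratio of Pgd to Pgk1 was 0.491, 0.510 and 0.498 with vehicle, 0.461, 0.451 and 0.440 with UK5099, 0.295, 0.300 and 0.299 with butyrate and 0.312, 0.310 and 0.310 with both, so that every group with butyrate lay below the others. All ratio pairs were chosen after their values were seen, and the ratios were not tested. Here they set members that rose, Gpi1 and Pgk1, against G6pdx and Pgd, and they describe these genes and not the pathways.

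**Figure D5:**
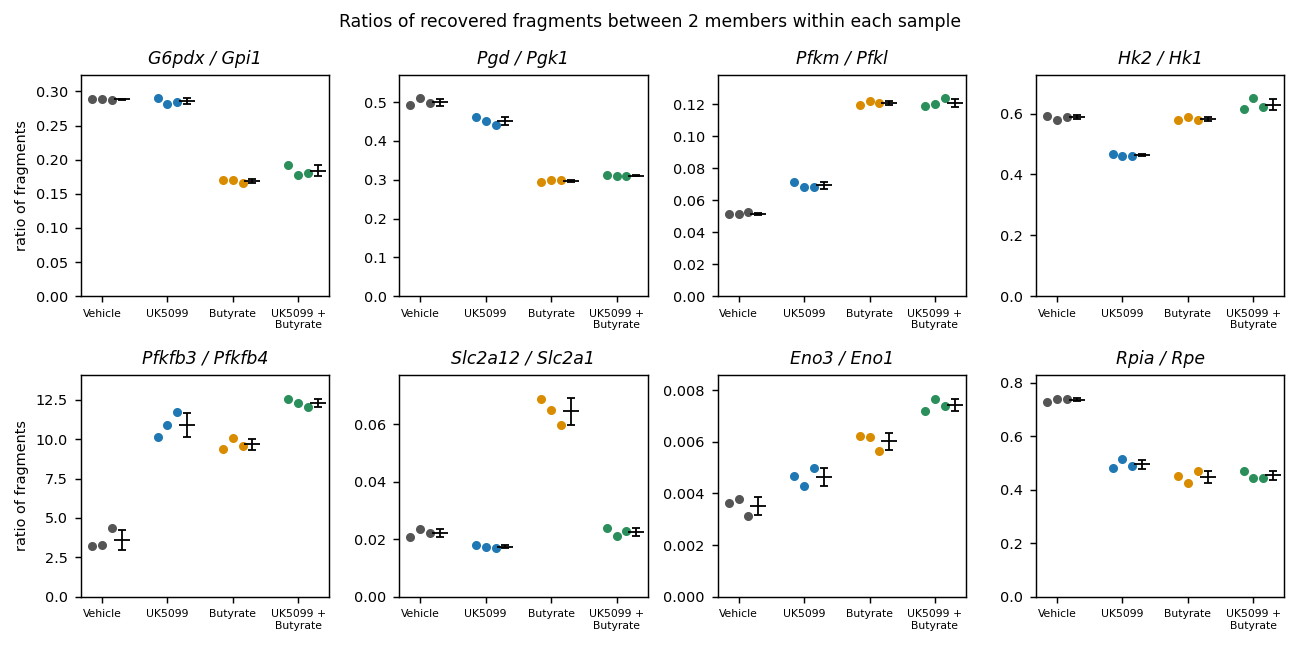
Each panel plots the ratio of recovered fragments of 2 members (axis from 0), with 1 point a sample and the mean with SD in black. G6pdx over Gpi1 is 0.289 with vehicle and 0.169 with butyrate, Pfkm over Pfkl is higher in all treated groups, and Hk2 over Hk1 is lowest with UK5099.

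In the non-oxidative branch, Rpia fell in every treated group. It makes ribose 5-phosphate, the precursor of nucleotides. Rpia (ENSMUSG00000053604, chromosome 6, 70742704 to 70769216) was at 6.97, 6.93 and 6.85 TPM with vehicle, 4.68, 5.17 and 4.98 with UK5099, 3.80, 3.78 and 3.91 with butyrate and 3.51, 3.27 and 3.33 with both. No treated value overlapped vehicle, and the combination was lowest. Coefficients were -0.41 ± 0.031 (SE, limma adjusted p = 4.5e-06), -0.71 ± 0.031 (SE, limma adjusted p = 4.4e-08) and -0.86 ± 0.031 (SE, limma adjusted p = 7.5e-09), and -0.28, -0.41 and -0.44 after median-of-ratios scaling. Rpe, the epimerase of the same branch, was 13.1 ± 0.207 TPM in vehicle and 10.4 ± 0.101 with the combination, with coefficients of 0.081, -0.12 and -0.31 that were 0.22, 0.21 and 0.16 after median-of-ratios scaling. The ratio of Rpia to Rpe fragments was 0.737 ± 0.00631, 0.496 ± 0.0166, 0.448 ± 0.0217 and 0.453 ± 0.0151 in the same order, with the 3 vehicle samples above all others.

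Tkt, transketolase, was at 129, 127 and 124 TPM with vehicle, 119, 118 and 120.3 with UK5099, 101, 101 and 104 with butyrate and 100, 100.2 and 103 with both. Taldo1, transaldolase, was at 59.4, 60.3 and 59.3 TPM with vehicle, 59.5, 60.8 and 59.6 with UK5099, 46.8, 49.7 and 50.6 with butyrate and 55.2, 51.9 and 51.1 with both. Both exchange carbon between ribose phosphate and glycolytic sugars. Tkt was below vehicle in every treated group, with coefficients of -0.089 ± 0.019 (SE, limma adjusted p = 0.0044), -0.31 ± 0.019 (SE, limma adjusted p = 4.8e-07) and -0.32 ± 0.019 (SE, limma adjusted p = 2.3e-07). Taldo1 had -0.28 ± 0.034 (SE, limma adjusted p = 5.9e-05) with butyrate and -0.18 ± 0.034 (SE, limma adjusted p = 0.0012) with the combination, but 0.0066 with UK5099 (adjusted p = 0.92). After median-of-ratios scaling the values were 0.062, 0.044 and 0.18 for Tkt and 0.16, 0.074 and 0.32 for Taldo1, none of them negative.

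The interaction asked whether UK5099 changed a gene by a different amount when butyrate was present. At an adjusted p under 0.01 alone, 3 members had a positive interaction (all genes, 7.01%) and 16 a negative one (6.38%). Scaling moved its median over genes of at least 1 TPM only from 0.0035 to -0.0020. The negative values included genes that rose with each drug and, with both, by less than the sum of the single changes. Pgk1 had an interaction of -0.40 ± 0.033 (SE, limma adjusted p = 3.0e-05), Gpi1 of -0.23 ± 0.023 (SE, limma adjusted p = 0.00010), and Pfkm of -0.31 ± 0.028 (SE, limma adjusted p = 6.2e-05). Slc2a12, which rose with butyrate and less with both, had -0.52 ± 0.033 (SE, limma adjusted p = 7.0e-06). Slc2a9 rose with each drug but had a coefficient of 0.035 with both, and its interaction was -0.48 ± 0.019 (SE, limma adjusted p = 3.6e-07). On fragments its interaction was -1.53.

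Positive interactions came from 3 members. For Hk2 (0.22 ± 0.026 SE, limma adjusted p = 0.00032), UK5099 values lay below vehicle, while those with both drugs lay above those with butyrate alone. For Rpia (0.27 ± 0.044 SE, limma adjusted p = 0.0021) and Pfkfb4 (0.33 ± 0.052 SE, limma adjusted p = 0.0018), both drugs lowered the level and the combination lay higher than the sum of the single effects. Slc2a1 had 0.18 ± 0.047 (SE, limma adjusted p = 0.023), which missed the limit on the deposited scale and passed it after median-of-ratios scaling (0.18, adjusted p = 0.0077).

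Set directly against each other, butyrate gave higher values than UK5099 for 7 members (all genes, 9.97%) and lower values for 14 (27.5%) at an adjusted p under 0.01 alone. After median-of-ratios scaling the counts were 18 (18.1%) and 5 (15.6%). In every fit that held the gene, Gpi1, Pfkm, Gapdh, Pgk1, Hk2 and Slc2a12 were higher with butyrate and G6pdx, Pgd, Pkm and Rpia were higher with UK5099. Slc2a12, with a mean under 1 TPM, was in 24 of the 25 fits. How many of all genes kept a direction in every fit was not computed. The largest differences were 0.75 ± 0.023 (SE, limma adjusted p = 1.4e-08) for Slc2a12 and 0.54 ± 0.020 (SE, limma adjusted p = 3.9e-08) for Pfkm on one side and -0.57 ± 0.032 (SE, limma adjusted p = 5.1e-07) for G6pdx and -0.43 ± 0.023 (SE, limma adjusted p = 4.1e-07) for Pgd on the other. Pkm, at -0.28, was -0.074 after median-of-ratios scaling.

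Of 47 further genes of hexose metabolism, 41 were in the table. At an adjusted p under 0.01 alone, 7 were higher and 12 lower with UK5099, 7 and 13 with butyrate, and 9 and 17 with the combination. Over all genes the shares were those given above for the members, from 8.24% higher and 24.7% lower with UK5099 to 10.1% and 40.8% with the combination. With median of ratios the counts were 10 higher and 6 lower, 17 and 5, and 17 and 7. The shares of all genes were then 13.6% and 13.6%, 20.2% and 18.2%, and 23.4% and 20.6%. The median coefficients of these genes were -0.023, -0.0024 and -0.022 as deposited and 0.0068, 0.077 and 0.11 with median of ratios. Past both limits were 2, 2 and 5 of them (all genes, 1.84%, 3.54% and 6.42%). H6pd, the pentose phosphate entry enzyme of the endoplasmic reticulum, fell from 12.7 ± 0.711 TPM in vehicle (SD, n = 3), and the means were 5.72 ± 0.106 with UK5099, 5.38 ± 0.192 with butyrate and 3.76 ± 0.0922 with both drugs, with a combination coefficient of -1.53 ± 0.037 (SE, limma adjusted p = 6.1e-10). Pck2, the mitochondrial PEP carboxykinase, fell from 51.2 ± 0.217 to 24.6 ± 0.0327 with UK5099 and 21.3 ± 0.879 with the combination (-1.22 ± 0.025 SE, limma adjusted p = 2.9e-10). Sord, sorbitol dehydrogenase, rose from 0.987 ± 0.0708 to 4.56 ± 0.167 with butyrate (1.48 ± 0.039 SE, limma adjusted p = 2.0e-09), and Pygb, a glycogen phosphorylase, fell from 27.7 ± 0.527 to 10.6 ± 0.365 with the combination (-1.30 ± 0.025 SE, limma adjusted p = 1.9e-10). After median-of-ratios scaling the combination coefficients were -1.09 for H6pd, -0.73 for Pck2 and -0.83 for Pygb, and the butyrate coefficient was 1.69 for Sord.

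Of 26 known regulators of these genes, 5 were higher and 8 lower with UK5099 at an adjusted p under 0.01 alone, 6 and 16 with butyrate, and 5 and 17 with the combination. Over all genes the shares were 8.24% higher and 24.7% lower with UK5099, 9.7% and 35.9% with butyrate, and 10.1% and 40.8% with both drugs. With median of ratios the counts were 11 higher and 7 lower, 13 and 4, and 14 and 7. The shares of all genes were then 13.6% and 13.6%, 20.2% and 18.2%, and 23.4% and 20.6%. Their median coefficients were -0.041, -0.16 and -0.17 as deposited and 0.049, 0.10 and 0.13 with median of ratios. Myc, a transcription factor that activates many glycolysis genes, rose from 88.3 ± 2.19 TPM in vehicle to 132 ± 3.60, 202 ± 2.43 and 209.8 ± 3.98, with coefficients of 0.58 ± 0.025 (SE, limma adjusted p = 1.4e-07), 1.18 ± 0.025 (SE, limma adjusted p = 7.1e-10) and 1.24 ± 0.025 (SE, limma adjusted p = 2.5e-10). Arrdc4, an arrestin related to Txnip that limits glucose uptake, fell from 19.6 ± 0.376 to 8.28 ± 0.102 with the combination (-1.15 ± 0.040 SE, limma adjusted p = 5.4e-09, and -0.68 with median of ratios). Txnip, which also limits glucose uptake and was named after its values were seen, was at 412 ± 10.6 TPM in vehicle samples, rose to 806 ± 35.8 with butyrate and fell to 316 ± 6.36 with UK5099 and 241 ± 6.91 with the combination. Its coefficients were -0.38, 0.97 and -0.78 as deposited and -0.23, 1.32 and -0.27 with median of ratios, all past an adjusted p of 0.01. Akt1 fell to 25.6 ± 0.997 and Trp53 to 29.5 ± 0.678 with the combination, from 64.0 ± 0.371 and 72.1 ± 1.24. Their combination coefficients were -1.29 and -1.26 as deposited and -0.79 and -0.77 after median-of-ratios scaling.

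There were 17 hypoxia targets outside glycolysis. At an adjusted p under 0.01 alone, 8 were higher and 4 lower with UK5099, 9 and 6 with butyrate, and 7 and 7 with the combination. The shares of all genes were 8.24% and 24.7%, 9.7% and 35.9%, and 10.1% and 40.8% in the same order. With median of ratios the counts were 12 higher and 2 lower, 12 and 3, and 13 and 2. The shares of all genes were then 13.6% and 13.6%, 20.2% and 18.2%, and 23.4% and 20.6%. The list had median coefficients of 0.14, 0.10 and 0.087 as deposited and 0.29, 0.45 and 0.59 with median of ratios. Car12, a membrane carbonic anhydrase, was 1.67 ± 0.0830 TPM in vehicle and rose with UK5099 (9.68 ± 0.119), butyrate (26.3 ± 0.245) and the combination (28.2 ± 0.844), with a combination coefficient of 3.45 ± 0.026 (SE, limma adjusted p = 2.1e-12). Adm, adrenomedullin, fell with UK5099 from 22.0 ± 0.956 to 9.98 ± 1.98 (-1.08 ± 0.11 SE, limma adjusted p = 4.3e-05), but was at 32.9 ± 1.75 with butyrate (0.56 ± 0.11 SE, limma adjusted p = 0.0020) and 27.2 ± 1.27 with the combination (coefficient 0.30, adjusted p = 0.049). Ddit4, an inhibitor of mTOR signalling, fell with butyrate from 484 ± 8.41 to 225 ± 8.05 (-1.10 ± 0.032 SE, limma adjusted p = 4.0e-09). The Adm values with median of ratios were -0.93, 0.90 and 0.79, and the butyrate value of Ddit4 was -0.75.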

How the data were processed

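RNA was sequenced from 12 organoid samples. The study's methods state trimming with fastp, alignment with STAR to GRCm38 and RSEM quantification, while the submitters' processing notes name STAR 2.7.9a, Partek and GRCm39. Library kit and sequencer also differ between labels and methods. The authors deposited TPM per gene, as 1 table with gene positions, and 0 per-sample columns were left unused. In 100% of genes the listed length equalled the stop minus the start, and TPM were divided by genomic span, introns included (median 11598 bases, exonic median 3006). Levels are compared between genes only after recomputing with exonic length from GENCODE M21. The marker sums are an exception, since they add deposited TPM over genes, so a fragment of a gene with a short span weighs more in them. Gene positions are as in the table, in the labelled GRCm39, and only 2.18% of genes matched by identifier had the GRCm38 start and end.

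Fragments and depth were recovered from the steps of low TPM values. Between 56.0% and 59.7% of values came out whole within 0.02 of a fragment, so count tests were not used and voom was an alternative. The limma fit used log2(TPM + 1), UK5099, butyrate and their interaction, all 12 samples and 24674 genes, and p-values were adjusted by Benjamini-Hochberg over all genes. A pseudocount of 1 was set here, since no source gave one. The fit was tested on simulated data, with the same added spread for every gene and no shift of the whole table. At an adjusted p under 0.01, it recovered 40 of 64 genes changed by 0.5 in log2 for UK5099 and 46 of 68 for butyrate. At a change of 1 it recovered 63 of 67 and 62 of 63. Of 24474 unchanged genes, 8 and 4 were called. The real data differ from these settings. Copies were found with BLAST at 95% identity over at least 50% of the copy and 200 bases. Alternatives were pseudocounts of 0.1 and 0.01, a filter at 1 TPM, other scalings and lengths, another variance prior, a block for replicate number, leaving out each sample and other limits.

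The members and all lists were chosen with earlier results of these data known. Full values were given for members past both limits on either scale and for 16 main genes of the roles. The other members described in full were singled out after their values were seen. Fits ran in limma 3.58.1 under R 4.3.3. Tables were made with pandas 2.3.3 and numpy 2.4.6 in Python 3.11.15, figures with matplotlib 3.10.9, and copies with BLAST 2.17.0.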

Additional observations from a re-analysis of the deposited data

Results flagged for a closer look

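The effect of UK5099 differed between samples with and without butyrate for 19 members, by the interaction term at a limma adjusted p under 0.01. None of them passed an absolute interaction of 1 on the deposited scale. The positive interaction coefficients on the log2(TPM + 1) scale were Hk2 0.22, Pfkfb4 0.33 and Rpia 0.27. The negative ones were Slc2a9 -0.48, Pgam1 -0.19, Aldoc -0.28, Tpi1 -0.16, Pgm1 -0.22, Rpe -0.27, Pfkfb3 -0.27, Pgd -0.19, Aldoa -0.20, Pkm -0.14, Pfkm -0.31, Slc2a6 -0.14, Gpi1 -0.23, Hk1 -0.21, Slc2a12 -0.52 and Pgk1 -0.40. Groups of 3 samples are too small for a test of outlying samples.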

How the results depend on the processing

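The count of members past both limits was 0 in each comparison as deposited and stayed 0 in all fits that left out 1 sample. It rose with a pseudocount of 0.01 (1 for UK5099, 3 for butyrate, 2 for the combination, 2 for the interaction and 1 for butyrate against UK5099) and with 0.1 (1 for each except UK5099). The genes past both limits with these pseudocounts were Slc2a6, Slc2a9, Slc2a12, Pfkm and Rpia. With exonic length it was 2 for butyrate, 1 for the interaction and 1 for butyrate against UK5099 (Pfkm and Slc2a12, Slc2a9, and Slc2a12), and with nuclear protein-coding genes rescaled 1 for butyrate and 1 for butyrate against UK5099 (Slc2a12 in both). Median-of-ratios scaling gave 2 for the combination (Slc2a1 and Eno3), with or without summed copies. Voom gave 6 for butyrate, 6 for the combination, 1 for the interaction and 1 for butyrate against UK5099, the last 2 from Slc2a9 and Slc2a12. With no limit on the coefficient the counts were 19, 25, 28, 19 and 21.

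At an adjusted p under 0.01 alone, higher members numbered 23, 27 and 32 with median-of-ratios scaling for UK5099, butyrate and the combination, with or without summed copies, 22, 25 and 31 with voom, 22 and 26 with quantile normalisation for the last 2, and 17 with exonic length for the combination. Of all 24674 genes, voom called 3690, 4981 and 5458 higher, and quantile normalisation 4030 and 4405 for the last 2. Exonic length called 3120 of 23913 higher for the combination. Lower members numbered 2, 2 and 3 with median-of-ratios scaling, with or without summed copies, and with voom, 2, 4 and 5 with quantile normalisation, and 8 for butyrate both with exonic length and with protein-coding genes rescaled. Of all 24674 genes, voom called 3734, 5348 and 5984 lower, and quantile normalisation 3813, 5260 and 6370. For butyrate, exonic length called 7670 of 23913 lower and the protein-coding rescaling 6933 of 15927.

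The lists below cover 25 members followed through every setting that held them, where the deposited or the other value passed the limit. With median-of-ratios scaling the coefficients of opposite sign were Pfkl 0.019, Tpi1 0.12, Eno1 0.074 and Tkt 0.062 for UK5099, Slc2a1 0.35, Pfkl 0.16, Tigar 0.18, Tpi1 0.28, Eno1 0.29, Pkm 0.12, Pgd 0.035, Tkt 0.044 and Taldo1 0.074 for butyrate, and Hk1 0.44, Pfkl 0.15, Tigar 0.33, Tpi1 0.23, Eno1 0.36, Pkm 0.18, G6pdx 0.26, Pgd 0.10, Tkt 0.18 and Taldo1 0.32 for the combination. With voom on fragments the coefficients of opposite sign were Pfkl 0.017, Tpi1 0.11, Eno1 0.072 and Tkt 0.061 for UK5099, Slc2a1 0.32, Pfkl 0.12, Tigar 0.21, Tpi1 0.24, Eno1 0.25, Pkm 0.078, Tkt 0.0032 and Taldo1 0.032 for butyrate, and Hk1 0.42, Pfkl 0.11, Tigar 0.41, Tpi1 0.19, Eno1 0.31, Pkm 0.13, G6pdx 0.23, Pgd 0.058, Tkt 0.14 and Taldo1 0.29 for the combination. With quantile normalisation the coefficients of opposite sign were Pfkl 0.0090 for UK5099, Slc2a1 0.36, Pfkl 0.18, Eno1 0.13, G6pdx 0.013, Tkt 5.2e-04 and Taldo1 0.092 for butyrate, and Hk1 0.43, Pfkl 0.11, Tigar 0.25, Eno1 0.075, G6pdx 0.23, Tkt 0.010 and Taldo1 0.25 for the combination. With median-of-ratios scaling with copies summed the coefficients of opposite sign were Tpi1 0.12 and Eno1 0.092 for UK5099, Tpi1 0.28, Eno1 0.28 and Pkm 0.12 for butyrate, and Tpi1 0.23, Eno1 0.30 and Pkm 0.17 for the combination. With rescaling of nuclear protein-coding genes the coefficients of opposite sign were Slc2a1 0.12 and Tpi1 0.047 for butyrate. With TPM with exonic length the coefficients of opposite sign were Tpi1 0.039 for butyrate. Beyond these lists, Aldoc, Pgm2 and Pgls (all 3 treatments), Rpe (butyrate and the combination), Pgm1 (UK5099 and the combination), Pgam2, Pfkfb2 and Slc2a12 (UK5099), Slc2a3, Pfkfb1 and the second Aldoa row also changed sign in at least 1 treatment with both median of ratios and voom. Most of these settings rescale whole samples, and the cause of single turns was not tested. Of the other values for 100 gene coefficients, 70 were the turns of sign in the lists, 2064 kept direction and side of the limit, 59 lost the limit and 54 gained it. Fewer were kept by the rescalings, 65 of 100 with median of ratios, 65 with voom and 68 with quantile normalisation.

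Samples with the same replicate number did not deviate together (correlations of -0.107 to 0.0294), so the numbers were not taken as pairs. Under the block Eno1 and Tkt lost their calls with UK5099 (limma adjusted p = 0.020 and 0.011). With the replicate block, 13 members were higher and 4 lower with UK5099, 12 and 13 with butyrate and 12 and 16 with the combination. Of all 24674 genes, 1894 were then higher and 5778 lower, 2299 and 8652, and 2398 and 9891. At 0 to 8 fragments a sample, Slc2a10 and Fbp1 could show no moderate change at this depth.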
